A study of Mus musculus with 12 samples.

Results

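Gzmb (ENSMUSG00000015437) and Prf1 (ENSMUSG00000037202), the mouse genes of granzyme B and perforin, were taken by name from the 33696 genes of 4 single-cell count matrices and followed in 2740 tumour T cells. Both genes were measured in every matrix. The cells were CD90.2-positive lymphocytes from tumours of MC38, a colon carcinoma line of the mouse, in animals heterozygous for Kaede, a fluorescent protein that violet light converts from green to red. On day 14 the tumour-draining lymph node was illuminated, so red cells in the tumour had come from that node and green cells had not been converted. The green gate therefore holds every other history, including cells already in the tumour. A dose of 12 Gy (RT) or no treatment (NT) followed, and tumours were collected 24 h (day 1) or 72 h (day 3) after it. Some mice collected at day 3 also received 10 µg of FTY720, a drug acting on sphingosine-1-phosphate receptors that keeps lymphocytes from leaving lymph nodes, on day 15, with RT (RT+FTY720) or without it (FTY720). All animals, controls included, carried Kaede and had the node illuminated, and the labels used here give no age.

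Each of the 6 conditions had 2 replicates, and each replicate was 1 pool of 4 tumours from as many mice, so values below are over 12 tumour pools, split where stated into red and green. Per replicate, a 10x Genomics well held NT day 1, NT day 3 and RT day 1 together and a further well held the remaining 3 conditions, so RT and NT at day 3 lie in different wells. The wells gave 666, 143, 1651 and 280 cells at medians of 17856.5 to 20915 UMIs (unique molecular identifiers, each standing for a counted transcript), and no barcode was shared between wells. In the replicate 2 wells, the colours that the matrices give for the hashtags (antibody tags that mark the sample) are exchanged relative to the tag numbers of the labels for 12 of 12 hashtags. Colours here follow the matrices, and sums over both colours do not depend on this.

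Cytotoxic T cells and natural killer (NK) cells store granzymes and perforin together in lytic granules. Perforin forms pores that let granzyme B, a serine protease that cuts after aspartate, reach the cytosol of a target cell and start apoptosis. Granzyme B is also known from activated regulatory T cells (Treg), and IL2 and T cell receptor (TCR) signals are known inducers of its gene.

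Clusters were built without any granzyme gene or Prf1, so that neither gene placed a cell in a class. They were named by marker genes. The 590 Treg-like cells had Foxp3 UMIs in 94.6% and Cd4 in 92.0% of cells. The 1311 CD8-like cells had Cd8a in 96.6% and Foxp3 in 2.90%, and the 418 CD4 conventional-like cells had Cd4 in 95.2% and Foxp3 in 1.20%. The NK receptor gene Ncr1 was at 0 UMIs in every Treg-like and CD8-like cell, but this did not hold for all NK markers. Of 8 NK markers, 5 were at 0 UMIs in Treg-like cells and 2 in CD8-like cells. In CD8-like cells 1 of the 8, Klri2, was found in at least 10% of cells, and Tyrobp was found in 3.66%. In Treg-like cells none reached 10%, and Tyrobp was found in 1.69%. A naive CD8-like class (147 cells), a naive CD4-like class (54 cells) and a CD8 cluster led by Klra1, an NK-type receptor gene (220 cells), were kept apart.

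The 250 bases before the start of each gene are shown because the levels of the 2 genes were distributed differently over the same cells. Both are from RefSeq on GRCm38.p6, matched by symbol (2 of 2), whereas the counts were made on another build, mm39. The window of Gzmb is chr14:56262335-56262584 on the minus strand and that of Prf1 is chr10:61297586-61297835 on the plus strand, both upstream of the annotated start and printed 5′ to 3′ in the direction of the gene. Capitals mark matches, on either strand, to short motifs of factors known from T cells.

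Gzmb: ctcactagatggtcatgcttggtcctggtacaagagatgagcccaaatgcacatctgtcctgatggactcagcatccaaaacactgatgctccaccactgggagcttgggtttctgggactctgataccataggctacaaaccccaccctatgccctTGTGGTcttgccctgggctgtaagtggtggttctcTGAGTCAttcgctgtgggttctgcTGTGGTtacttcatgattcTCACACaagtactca

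Prf1: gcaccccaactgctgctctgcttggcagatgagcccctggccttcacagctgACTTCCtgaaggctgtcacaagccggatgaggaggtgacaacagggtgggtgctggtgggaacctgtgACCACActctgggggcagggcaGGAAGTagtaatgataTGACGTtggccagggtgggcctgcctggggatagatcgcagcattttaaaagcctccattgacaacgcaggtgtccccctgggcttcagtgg

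In the Gzmb window, the letters TGANTCA (AP-1) matched at 58 to 52 bases before the start, a motif held by 6.73% of 32536 windows of this length. TGTGGT (Runx) matched at 93 to 88 and at 34 to 29 bases, against 14.0% of windows, and TCACAC (a T-box core) at 15 to 10 bases, against 12.1%. In the Prf1 window, GGAAGT (ETS) matched at 108 to 103 and on the other strand at 198 to 193 bases, against 19.8% of windows. TGTGGT matched on the other strand at 130 to 125 bases, and TGACGT (a CRE core) at 92 to 87 bases, against 6.504%. No match overlapped another, and Runx was the motif of this set found in both windows. The matches describe letters and not bound sites.

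Gzmb was highest in Treg-like cells and Prf1 in CD8-like cells. Gzmb stood at 3071 ± 1861 CPM (UMIs of the gene per 1000000 UMIs of the class; SD, n = 12 pools, 1007 to 6181) in Treg-like cells. It stood at 1522 ± 888 CPM in CD8-like cells (n = 12, 598 to 3294) and at 161 ± 118 CPM in CD4 conventional-like cells (n = 11, 36.9 to 393). The SDs are wide because the pools span all 6 conditions. Within pools Treg-like cells carried more Gzmb than CD8-like cells in 12 of 12 (median ratio 2.09) and more than CD4 conventional-like cells in 11 of 11. Prf1 stood at 289 ± 117 CPM in CD8-like cells (n = 12, 151 to 564), at 20.5 ± 14.9 CPM in Treg-like cells (n = 12, 0 to 42.3) and at 2.70 ± 2.38 CPM in CD4 conventional-like cells (n = 11, 0 to 6.06). CD8-like cells carried more Prf1 than Treg-like cells in 12 of 12 pools.

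In edgeR's quasi-likelihood test with the pool as a block and Benjamini-Hochberg adjustment over 9917 genes, the CD8-like minus Treg-like log2 difference was −0.89 ± 0.15 (SE) for Gzmb (adjusted p = 1.716e-05) and 3.55 ± 0.20 for Prf1 (adjusted p = 5.063e-15). The share of all genes that passed 0.05 between these classes was 40.3%. Against CD4 conventional-like cells, Gzmb differed by 4.29 ± 0.19 in Treg-like cells (29.8% of genes passed) and by 3.39 ± 0.18 in CD8-like cells (33.2% passed), with edgeR adjusted p of 8.908e-17 and 7.704e-15. Prf1 differed by 3.11 ± 0.43 and 6.66 ± 0.32 in the same comparisons, with edgeR adjusted p of 9.147e-07 and 5.463e-16. Within pools, Prf1 was higher in Treg-like than in CD4 conventional-like cells in 8 of 11. Its UMIs were 0 in 3 irradiated Treg-like pools, and in 2 irradiated and 2 unirradiated CD4 conventional-like pools. With classes set from the UMIs of Cd8a, Cd8b1, Cd4 and Foxp3 alone, the CD8-like minus Treg-like differences were −1.08 for Gzmb and 3.45 for Prf1.

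Shares of positive cells depend on depth, so every cell was thinned to 5000 UMIs and a cell with at least 1 UMI was called positive. Gzmb was found in 73.1% of 569 Treg-like cells (exact binomial 95% interval 69.3 to 76.7%), in 54.7% of 1254 CD8-like cells (51.9 to 57.5%) and in 15.7% of 402 CD4 conventional-like cells (12.3 to 19.6%). Free RNA in droplets can also leave UMIs, so the shares of the naive-like classes are given beside these. Gzmb was found in 2.84% of 141 naive CD8-like cells and in 0 of 50 naive CD4-like cells. A count of 0 allows a share of positive cells of up to 6% at 3 counts, or 7.11% by the exact binomial interval. Prf1 was found in 45.2% of CD8-like cells (42.4 to 48.0%), in 7.91% of Treg-like cells (5.83 to 10.4%) and in 0.746% of CD4 conventional-like cells (0.154 to 2.17%). It was found in 20.6% of naive CD8-like cells (14.2 to 28.2%) and in 4 of 50 naive CD4-like cells (8%, 2.22 to 19.2%). The Prf1 share of Treg-like cells thus lay above that of CD4 conventional-like cells, with intervals that did not overlap, and inside the interval of the naive CD4-like cells. These intervals treat the cells of all pools as independent, so they cover counting error only and not the spread between pools. The part of free RNA in the low Prf1 shares was not tested. Before thinning, median depths were 22223 UMIs in CD8-like, 19630.5 in Treg-like, 15274.5 in CD4 conventional-like and 13449 in naive CD4-like cells, and Gzmb was found in 81.0%, 64.1% and 22.7% of all Treg-like, CD8-like and CD4 conventional-like cells.

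Among positive Treg-like cells the mean was 17.9 ± 8.1 Gzmb UMIs per positive cell (SD, n = 12 pools) at 5000 UMIs per cell, with 147 in the highest cell. In CD8-like cells the mean was 12.1 ± 4.4 UMIs (n = 12), with 160 in the highest cell, and in CD4 conventional-like cells 4.17 ± 1.96 (n = 8 pools with at least 3 positive cells). Prf1-positive CD8-like cells carried 2.89 ± 1.13 Prf1 UMIs (n = 12) and Prf1-positive Treg-like cells 1.47 ± 0.36 (n = 6).

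Most Gzmb-positive Treg-like cells had no Prf1 UMI. Of 569 thinned Treg-like cells, 378 had Gzmb alone, 38 had both genes, 7 had Prf1 alone and 146 had neither. CD8-like cells spread over all 4 states, with 372 of 1254 cells holding both, 314 Gzmb alone, 195 Prf1 alone and 373 neither. No CD4 conventional-like cell held both, and of 141 naive CD8-like cells 28 had Prf1 alone and 3 had Gzmb alone. In Treg-like cells, Prf1 was found in 10.7 ± 5.6% of Gzmb-positive and 3.28 ± 4.91% of Gzmb-negative cells, higher in 8 of 8 pools (exact two-sided sign-flip permutation p = 0.00781, the smallest that 8 pools can give). In CD8-like cells the shares were 49.4 ± 12.0% and 36.4 ± 13.1%, higher in 9 of 12 pools, and this difference did not pass (exact permutation p = 0.0781).

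**Figure D1:**
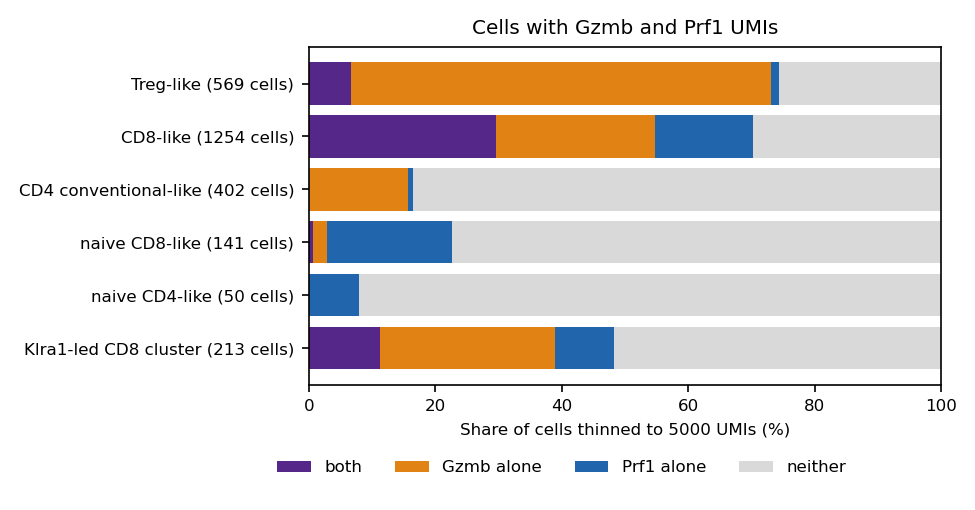
Share of cells, each thinned to 5000 UMIs, that held UMIs of Gzmb and Prf1, of Gzmb alone, of Prf1 alone or of neither, by class with the number of cells. Gzmb alone is the widest segment in Treg-like cells (378 of 569), Prf1 alone outnumbers Gzmb alone in naive CD8-like cells (28 against 3), and CD8-like cells fill all 4 segments.

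Irradiated tumours held Treg-like and CD8-like cells with 2.85 and 2.78 times as much Gzmb as unirradiated ones, and Prf1 showed no difference that passed the test. In Treg-like cells Gzmb stood at 1839.9 and 1820.3 CPM in the NT day 1 pools (replicates 1 and 2), and at 3278 and 2462 CPM in RT day 1. At day 3 it stood at 1536 and 1389.9 CPM in NT and at 4751 and 6181 CPM in RT. With FTY720 it stood at 1007 and 1928 CPM without radiation and at 6092 and 4568 CPM with it. Every irradiated pool lay above every unirradiated one, and the 4 irradiated day 3 pools lay above both irradiated day 1 pools. Over the 6 pools of each kind the means were 4555 ± 1487 CPM in RT and 1587 ± 350 CPM in NT (SD).

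In CD8-like cells Gzmb stood at 879 and 909 CPM in NT day 1 and at 1261 and 1835 CPM in RT day 1. At day 3 it stood at 732 and 598 CPM in NT and at 3294 and 2695 CPM in RT. With FTY720 it stood at 747 and 985 CPM without radiation and at 2131 and 2198 CPM with it. Here too the 6 irradiated pools (2236 ± 700.4 CPM) lay above the 6 unirradiated ones (808 ± 142 CPM) with no overlap.

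**Figure D2:**
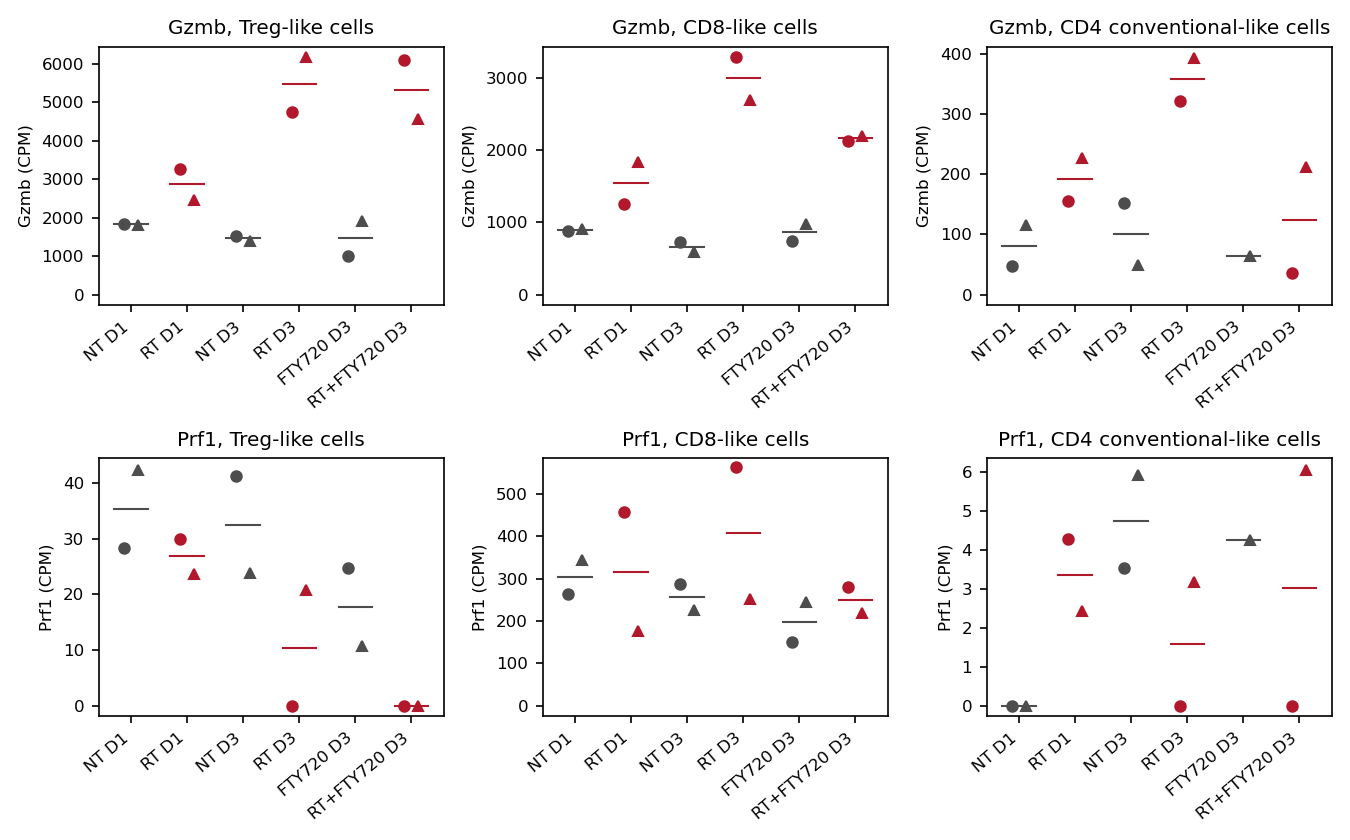
CPM of Gzmb (top row) and Prf1 (bottom row) in Treg-like, CD8-like and CD4 conventional-like cells by condition; circles are replicate 1 pools, triangles replicate 2 pools, bars the mean, red irradiated and grey unirradiated tumours, and pools with under 5 cells of the class are not drawn. Irradiated pools lie above unirradiated ones for Gzmb in Treg-like cells (2462 to 6181 against 1007 to 1928 CPM) and CD8-like cells (1261 to 3294 against 598 to 985 CPM), whereas the Prf1 values of CD8-like cells overlap.

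The mean RT minus NT difference over day 1, day 3 and day 3 with FTY720 was 1.51 ± 0.15 on the log2 scale in Treg-like cells (2.85-fold, edgeR adjusted p = 0.000696 over 8290 genes) and 1.47 ± 0.11 in CD8-like cells (2.78-fold, adjusted p = 2.07e-05 over 10303 genes). The share of all genes that passed was 1.03% in Treg-like and 7.83% in CD8-like cells. The differences in the 2 classes could not be distinguished, with a CD8-like minus Treg-like difference of −0.03 ± 0.19 (edgeR adjusted p = 1, 0% of genes passed). Leaving out any 1 pool gave 1.38 to 1.70 in Treg-like and 1.37 to 1.55 in CD8-like cells, all past the threshold. The cluster make-up of both classes differed between the 2 groups. Cluster 6 (led by Fam83g, Actg2 and Areg) held 24.5% of Treg-like cells of unirradiated and 46.3% of irradiated tumours, and cluster 3 (led by Frmd5, Cep112 and Nckap5) 42.3% and 24.2%. Within each of these clusters Gzmb was also higher on average in irradiated pools, at 5354 against 2170 CPM in cluster 6 (6 and 3 pools) and 3311 against 1881 CPM in cluster 3 (4 and 6 pools), given as a description. Among CD8-like cells, cluster 0 (led by Gzmf) held 28.5% of cells in unirradiated and 13.4% in irradiated tumours, cluster 15 (led by Ifi204) 1.86% and 10.7%, and cluster 14 (led by Cox6b2) 0.116% and 11.8%. Gzmb was higher on average in irradiated pools in 7 of the 8 CD8-like clusters with pools of both groups, such as cluster 0 (1258 against 579 CPM, 4 and 6 pools) and cluster 15 (3434 against 1889.9 CPM, 4 and 2 pools). Cluster 11, led by Il2, went the other way (611 against 998 CPM, 2 and 4 pools). NK and myeloid marker sums per 10000 UMIs overlapped between the groups of Treg-like pools (NK 0 to 0.111 in RT and 0 to 0.165 in NT; myeloid 0.0957 to 0.301 and 0 to 0.410), with 6 and 5 of 8 NK markers and 1 of 7 myeloid markers at 0. In CD8-like pools the NK sums were 0.143 to 0.699 in RT and 0.278 to 1.88 in NT, with 3 and 2 of 8 markers at 0. The part of either in the Gzmb difference was not tested.

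The difference was seen where both groups shared a well. RT minus NT within wells, as the mean of day 1 and day 3 with FTY720, was 1.09 ± 0.14 in CD8-like cells (edgeR adjusted p = 0.00268, 3.03% of genes passed) and 1.27 ± 0.19 in Treg-like cells (edgeR adjusted p = 0.0314, 0.0241% passed). In Treg-like cells this call was lost when any of 6 pools was left out (1.07 to 1.56 over all 12 omissions, adjusted p up to 0.166), those of NT day 1, those of RT day 1, FTY720 replicate 1 and RT+FTY720 replicate 2. In CD8-like cells it was lost when the 3 mixed clusters, which had been split cell by cell, were left out (0.85, adjusted p = 0.101).

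By day, the day 1 differences did not pass. They were 0.67 ± 0.26 in Treg-like cells (edgeR adjusted p = 1, 0.0241% of genes passed) and 0.82 ± 0.19 in CD8-like cells (edgeR adjusted p = 0.272, 0.0971% passed). DESeq2 called the CD8-like difference (0.81, adjusted p = 0.0403), as did edgeR with no filter on low counts (0.80, adjusted p = 1.521e-07). At day 3 the differences, between wells, were 2.00 ± 0.27 in Treg-like cells (edgeR adjusted p = 0.00665, 0.591% passed) and 2.25 ± 0.20 in CD8-like cells (edgeR adjusted p = 0.000107, 4.62% passed). With FTY720 they were 1.87 ± 0.27 (edgeR adjusted p = 0.0171, 0.145% passed) and 1.36 ± 0.19 (edgeR adjusted p = 0.00497, 3.77% passed). The Treg-like pools at day 3 held few cells (8 to 23 in the RT and FTY720 wells). The Treg-like call at day 3 was lost without NT replicate 1 (2.07, adjusted p = 0.137) or NT replicate 2 (1.93, adjusted p = 0.125), and that with FTY720 without FTY720 replicate 1, which had 8 cells (1.48, adjusted p = 0.180). The CD8-like call with FTY720 was lost when the mixed clusters were left out (0.99, adjusted p = 0.126).

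Whether the radiation difference itself changed with time or FTY720 was tested. Day 3 minus day 1 was 1.43 ± 0.27 in CD8-like cells (edgeR adjusted p = 0.0603, 0.223% of genes passed) and 1.33 ± 0.37 in Treg-like cells (edgeR adjusted p = 0.721, 0% passed), so neither passed. With FTY720 minus without it was −0.89 ± 0.27 in CD8-like cells (edgeR adjusted p = 0.335, 0.0776% passed) and −0.13 ± 0.37 in Treg-like cells (edgeR adjusted p = 0.972, 0% passed). In the CD8-like test of day 3 against day 1, leaving out either FTY720 pool took the adjusted p below the threshold (0.0356 and 0.0337), as did clusters built with the granzyme genes and Prf1 (1.47, adjusted p = 0.0418). DESeq2 gave 0.000531 for a difference of 1.44.

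FTY720 itself moved neither gene past the threshold in edgeR with its filter on low counts. Averaged over irradiated and unirradiated tumours at day 3, the Gzmb difference was −0.04 ± 0.13 in CD8-like cells (edgeR adjusted p = 0.974, 0.00971% of genes passed), and in Treg-like cells it was under 0.001 in size with an SE of 0.18 (edgeR adjusted p = 1, 0% passed). In irradiated tumours, within a well, it was −0.48 ± 0.19 in CD8-like cells (edgeR adjusted p = 0.396, 0.0874% passed) and −0.07 ± 0.26 in Treg-like cells (edgeR adjusted p = 0.959, 0% passed). Prf1 in CD8-like cells differed by −0.51 ± 0.32 and −0.73 ± 0.45 in the same comparisons (edgeR adjusted p = 0.723 and 0.593). With no filter, edgeR called both Prf1 differences (−0.53 and −0.74) and that of Gzmb in irradiated CD8-like cells (−0.48). In untreated tumours, day 3 minus day 1 was −0.38 ± 0.26 for Gzmb in Treg-like cells (0% of genes passed) and −0.44 ± 0.19 in CD8-like cells (0% passed), with edgeR adjusted p of 1 and 0.858.

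Prf1 in CD8-like cells stood at 264 and 344 CPM in NT day 1, 457 and 176 in RT day 1, 288 and 225 in NT day 3 and 564 and 252 in RT day 3. With FTY720 it stood at 151 and 245 CPM without radiation and at 280.3 and 219 CPM with it. The replicates of both RT conditions without FTY720 lay far apart, and irradiated and unirradiated pools overlapped. RT minus NT was 0.38 ± 0.25 (1.299-fold, edgeR adjusted p = 0.416), and 0.09 to 0.55 when a pool was left out. In Treg-like cells the Prf1 values rest on few UMIs: 46 and 115 in NT day 1 (59 and 114 cells), 22 and 73 in RT day 1 (28 and 146 cells), and 31 and 49 in NT day 3 (43 and 112 cells). In the RT day 3 pools there were 0 and 9 UMIs (12 and 22 cells), in FTY720 3 and 5 (8 and 23 cells), and in RT+FTY720 0 and 0 (10 and 13 cells). Summed, that was 249 Prf1 UMIs in 359 Treg-like cells of unirradiated and 104 in 231 of irradiated tumours, and the test over pools did not pass (edgeR adjusted p = 0.233).

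In CD4 conventional-like cells the Gzmb difference did not pass. Gzmb stood at 85.7 ± 46.4 CPM in unirradiated (n = 5 pools, 47.7 to 153) and 224 ± 125 CPM in irradiated pools (n = 6, 36.9 to 393), which overlapped. The lowest irradiated value, 36.9 CPM, was RT+FTY720 replicate 1, and FTY720 replicate 1 had 3 cells and was left out. The difference of 1.42 ± 0.40 did not pass in edgeR (adjusted p = 0.116, 1.16% of genes passed), and DESeq2 gave 1.39 with an adjusted p of 0.0243. Prf1 was too low in this class to be tested, with 12 UMIs in 233 cells of unirradiated and 8 in 182 cells of irradiated tumours.

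Gzmb-positive cells of irradiated tumours carried more Gzmb each, and the share of positive cells, given after it, did not pass the test. In Treg-like cells thinned to 5000 UMIs, positive cells carried 12.8 and 13.2 Gzmb UMIs in NT day 1, 11.1 and 10.4 in NT day 3, and 8.2 and 12.4 in FTY720. They carried 23.5 and 15.0 in RT day 1, 23.9 and 30.2 in RT day 3, and 31.7 and 22.8 in RT+FTY720. The 2 groups of 6 pools did not overlap, at 24.5 ± 6.0 UMIs in RT and 11.3 ± 1.9 in NT (exact two-sided permutation within strata, p = 0.00926, the smallest the design can give, adjusted p = 0.0463 over 5 class and gene combinations). CD8-like positive cells carried 8.74 and 7.80 UMIs in NT day 1, 6.96 and 6.69 in NT day 3, and 9.56 and 14.0 in FTY720, against 11.2 and 15.6, 21.0 and 14.5, and 13.5 and 15.9 in the matching RT pools. These means of 15.3 ± 3.3 and 8.96 ± 2.69 UMIs also differed (exact permutation p = 0.0185, adjusted p = 0.0463), with FTY720 replicate 2 at 14.0 inside the range of the RT pools. Both calls were lost when single pools were left out: in Treg-like cells without NT day 1 replicate 1 (a difference of 13.1 UMIs, exact permutation with adjusted p = 0.0926) or replicate 2 (13.2). In CD8-like cells they were lost without FTY720 replicate 1 (5.58), NT day 1 replicate 1 (6.48) or 2 (6.17) or RT+FTY720 replicate 2 (5.93).

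The share of Gzmb-positive cells did not pass after Benjamini-Hochberg adjustment over 6 class and gene combinations. In Treg-like cells it was 83.1 ± 8.9% in RT and 68.6 ± 7.5% in NT pools (n = 6 each, exact permutation p = 0.0278, adjusted p = 0.0741). In CD8-like cells it was 70.2 ± 12.0% and 49.4 ± 6.0% (exact permutation p = 0.037, adjusted p = 0.0741). A lone combination at the smallest exact permutation p of 6 against 6 pools (0.00926) could not pass over 6 combinations. It could over the 5 of the level test. The CD8-like shares differed by day in their values: 53.5 and 57.5% in NT day 1 stood beside 54.5 and 55.2% in RT day 1, and 50.4 and 44.4% in NT day 3 beside 80.0 and 77.5% in RT day 3. With FTY720 they were 50 and 40.8% without radiation and 76.9 and 77.3% with it. Prf1-positive shares were 40.7 ± 5.9% in RT and 44.8 ± 6.3% in NT pools of CD8-like cells (exact permutation adjusted p = 0.472) and 3.47 ± 5.28% and 10.4 ± 4.0% in Treg-like cells (adjusted p = 0.0741). Prf1 UMIs per positive CD8-like cell were 3.38 ± 1.43 and 2.41 ± 0.47 (exact permutation adjusted p = 0.231), and without RT day 1 replicate 2 that difference passed (1.23 UMIs, exact permutation adjusted p = 0.0231).

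**Figure D3:**
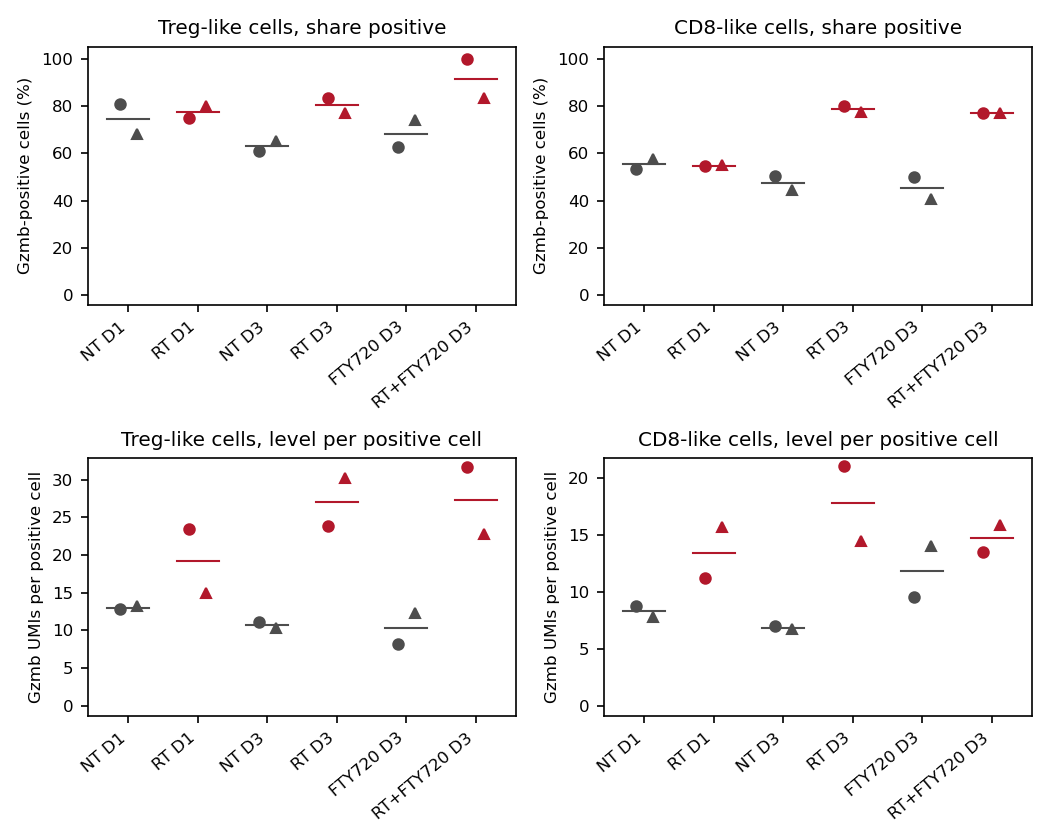
Share of Gzmb-positive cells (top row, %) and mean Gzmb UMIs per positive cell (bottom row) after thinning to 5000 UMIs per cell, in Treg-like (left) and CD8-like cells (right) by condition; circles are replicate 1 pools, triangles replicate 2 pools, bars the mean, red irradiated and grey unirradiated tumours. In CD8-like cells the day 1 shares lie together (53.5 and 57.5% in NT, 54.5 and 55.2% in RT) while the levels per positive cell lie apart (8.74 and 7.80 in NT, 11.2 and 15.6 UMIs in RT).

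Red Treg-like cells, those that had come from the node, carried more Gzmb than green ones of the same tumours. Over the 8 pools with at least 5 cells of each colour, red cells stood at 1559 to 5271 CPM (median 2109.8, mean 2596 ± 1226) and green cells at 755 to 4189 CPM (median 1468, mean 1761 ± 1053). Red was higher in 8 of 8 pools, although the 2 ranges overlapped between pools. The pools left out, with under 5 cells of a colour, went both ways. Red was lower in FTY720 replicate 1 (790 against 1356 CPM) and RT day 3 replicate 2 (6141 against 6584 CPM). It was higher in RT+FTY720 replicate 1 (6572 against 3343 CPM) and replicate 2 (5136 against 2387 CPM). The paired difference was 0.65 ± 0.11 on the log2 scale (1.57-fold, edgeR adjusted p = 0.00695, 1.56% of genes passed). It was 0.56 ± 0.09 in the 4 replicate 2 pools (edgeR adjusted p = 0.0464) and 0.75 ± 0.20 in the 4 replicate 1 pools, where it did not pass (edgeR adjusted p = 0.295). With the colours of the labels it was 0.09 ± 0.21 (edgeR adjusted p = 1), so the call depends on the matrices' hashtag names in the replicate 2 wells. Red Treg-like cells were also deeper, at a median of 21164 UMIs against 16089 in green, and the part of depth in the CPM difference was not tested. At equal depth, Gzmb-positive shares were 75.3 ± 7.4% in red and 64.1 ± 15.7% in green (n = 8, higher in 6, exact permutation adjusted p = 0.375), and positive cells carried 17.1 ± 7.1 and 12.6 ± 4.0 UMIs (n = 7, higher in 6, exact permutation p = 0.0469, adjusted p = 0.117). This difference in level passed with cells called positive at 2 UMIs (4.78 UMIs, exact permutation adjusted p = 0.0469). It also passed without thinning (30.5 UMIs, exact permutation adjusted p = 0.0391), but there the UMIs per cell also rise with depth, which was greater in red cells.

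In CD8-like cells neither gene differed by colour past the threshold. Gzmb stood at 1574 ± 924 CPM in red cells and at 1538 ± 1467 CPM in green cells (n = 12 pools, higher in red in 7), a paired difference of 0.21 ± 0.19 (edgeR adjusted p = 0.560, 6.47% of genes passed). Green RT day 3 replicate 1, with 11 cells, held the highest value at 5705 CPM. For Prf1 the red mean was 321 ± 131 CPM and the green mean 238 ± 124 CPM (higher in red in 7 of 12), a difference of 0.47 ± 0.20 (edgeR adjusted p = 0.166). In the RT+FTY720 pools, Prf1 stood at 416 and 313 CPM in red cells and at 161 and 79.1 CPM in green cells, and in RT day 3 at 577 and 303 CPM against 525.8 and 149.95 CPM. Prf1-positive red cells carried 3.11 ± 1.32 UMIs and green cells 2.44 ± 1.06, with red above green in 10 of 12 (exact permutation p = 0.0117, adjusted p = 0.0586). That difference passed with stricter quality limits (0.71 UMIs, exact permutation adjusted p = 0.0488), with positive at 2 UMIs (1.37, adjusted p = 0.0469) and without NT day 3 replicate 1 (0.76, adjusted p = 0.00977). In CD4 conventional-like cells Gzmb had a red mean of 89.8 ± 93.8 CPM and a green mean of 192 ± 180.5 CPM (n = 8, lower in red in 6), and this did not pass (−0.88 ± 0.62, edgeR adjusted p = 0.884, 0.206% of genes passed). The radiation difference of Gzmb was not distinguishable between colours. Red minus green was −0.10 ± 0.23 in Treg-like cells (edgeR adjusted p = 1, 0.0115% of genes passed) and 0.33 ± 0.39 in CD8-like cells (edgeR adjusted p = 0.917, 0.0113% passed).

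**Figure D4:**
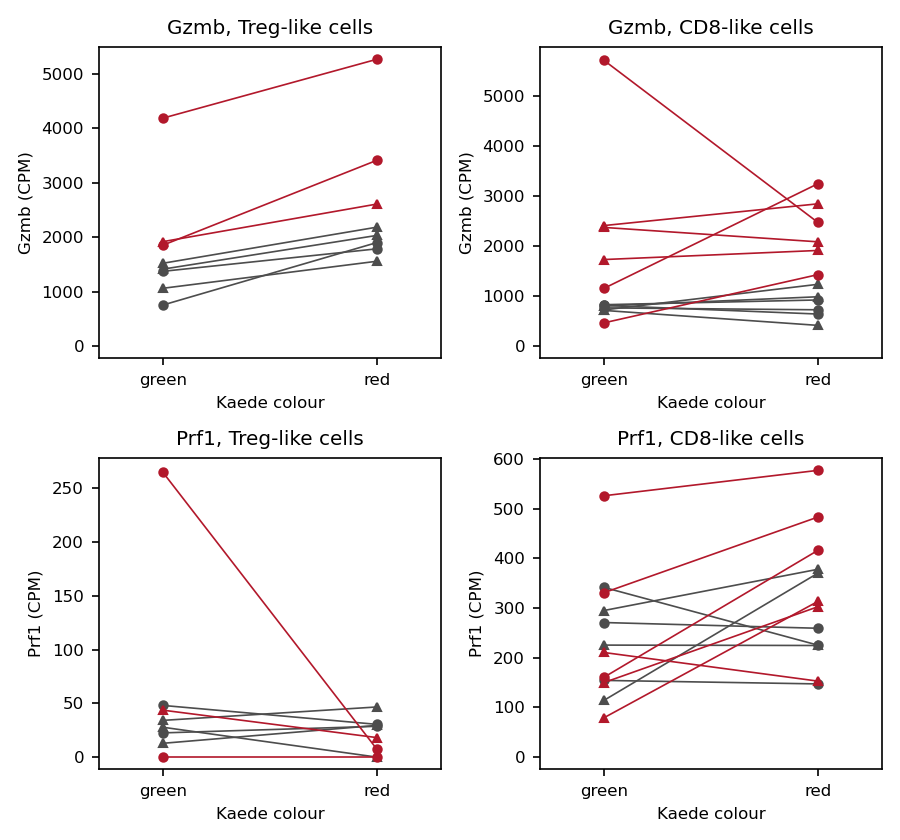
CPM of Gzmb (top row) and Prf1 (bottom row) in green and red cells, each line joining both colours of a tumour pool with at least 5 cells of each, in Treg-like (left, 8 pools) and CD8-like cells (right, 12 pools); circles are replicate 1, triangles replicate 2, red lines irradiated and grey lines unirradiated tumours. All 8 Gzmb lines of Treg-like cells go up from green to red, and the CD8-like lines go both ways (7 of 12 up for each gene).

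The clusters inside the CD8-like class are given as a description. Cluster 0, led by Gzmf, Styk1 and Klrh1, had Prf1 in 65.1% and Gzmb in 51.5% of 301 thinned cells. Cluster 4, led by Ppp2r2c, Ccl5 and Gzmk, had the reverse order, with Prf1 in 33.0% and Gzmb in 65.9% of 176 cells. Cluster 15, led by Ifi204, had both, with Gzmb in 75.4% and Prf1 in 55.7% of 61 cells and the highest mean Gzmb of a CD8-like cluster at 2919 ± 1874 CPM (n = 6 pools, 4 of them irradiated). Among Treg-like clusters, Gzmb stood at 4293 ± 1958 CPM in cluster 6 (n = 9), 2453 ± 1297 in cluster 3 (n = 10) and 1346 ± 1019 in cluster 8 (n = 7), which was led by Ccr3 and Il1rl1, the receptor gene for IL33. These means mix irradiated and unirradiated pools in unequal numbers. In unirradiated pools alone they were 2170 CPM in cluster 6 (n = 3), 1881 CPM in cluster 3 (n = 6) and 1141 CPM in cluster 8 (n = 5). The Klra1-led CD8 cluster had Gzmb in 39.0% and Prf1 in 20.7% of 213 cells.

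TCR sequences gave a split that used neither gene. Of 1222 CD8-like cells with a TCR beta chain, 607 shared it with another cell, of any class, in their pool. Counted among CD8-like cells alone, 191 clones had at least 2 cells, with up to 20. Gzmb was found in 64.2 ± 10.9% of cells of expanded clones and 52.6 ± 16.6% of other cells (n = 11 pools, higher in 9, exact permutation p = 0.0371, adjusted p = 0.0742 over both genes). Prf1 was found in 50.5 ± 16.7% and 38.4 ± 8.1% (higher in 8 of 11, exact permutation p and adjusted p = 0.116), so neither passed in this setting. Both passed when thinned to 10000 UMIs (18.4 points for Gzmb and 24.0 for Prf1, exact permutation adjusted p = 0.00781 each) and with classes from the 4 lineage genes alone (15.7 and 17.98 points, adjusted p = 0.00977 each). They also passed with naive-like and Klra1-led cells added (16.1 and 18.1 points, exact permutation adjusted p = 0.0117 each) and without FTY720 replicate 1 (13.3 and 17.2 points, adjusted p = 0.0273 and 0.0234). Gzmb passed without RT day 3 replicate 2 (15.1 points, exact permutation adjusted p = 0.0117) and Prf1 with positive at 5 UMIs (7.20 points, adjusted p = 0.0312). For each gene the other 19 of 24 alternatives did not pass, with exact permutation adjusted p up to 0.458 for Gzmb and 0.232 for Prf1. Cells with UMIs of at least 2 of 6 cell cycle genes did not differ past the threshold from cells with none at equal depth. Gzmb was found in 74.2 ± 13.8% of cycling and 68.0 ± 12.8% of other Treg-like cells (n = 5 pools, where the smallest exact permutation p is 0.0625), and in 55.2 ± 22.2% and 57.2 ± 10.3% of CD8-like cells (n = 8, exact permutation adjusted p = 0.688). Prf1 in CD8-like cells was found in 33.0 ± 10.9% and 43.5 ± 8.2% (n = 8, exact permutation adjusted p = 0.203). Without thinning the Prf1 order turned, to 78.2 ± 11.0% of cycling and 57.2 ± 7.1% of other cells (n = 12, exact permutation adjusted p = 0.00195).

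The other genes of the granule pathway were counted from 7 lists. Of the granule cargo genes, 9 of 11 tested were higher and 2 lower in CD8-like than in Treg-like cells. The 2 lower ones were Gzmb and Srgn, the proteoglycan serglycin that packs granules (−0.46 ± 0.10). The largest differences were those of Gzmf (8.72 ± 0.36), Gzma (7.89 ± 0.46), Gzmk (7.15 ± 0.30) and Gzmd (6.71 ± 0.84), of which Gzmd and Gzmf are close paralogs, so that reads can be split between them. The list's median log2 difference was 3.55, beside 0.07 over all genes tested. Of all genes tested, 40.3% passed between these classes, and the list counts here stand beside that share. Of the granzyme inhibitors, 4 of 7 were higher in CD8-like cells and none passed in the other direction, among them Serpinb9, the serpin that blocks granzyme B (1.82 ± 0.17). Of the IL2 receptor and response genes, 7 of 9 were lower and 2 higher in CD8-like cells, led by Il2 (7.14 ± 0.47), the high-affinity receptor chain gene Il2ra (−2.85 ± 0.18), and Socs2 (−2.59 ± 0.14). Some list genes were also markers used to name the classes, such as Il2ra for Treg-like and Nkg7 and Ccl5 for CD8-like cells. Their differences between these classes are not independent of that naming.

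With radiation, Gzmb had the largest difference of the cargo genes that passed. In CD8-like cells 2 of 12 cargo genes tested were higher and none passed as lower, Gzmb and Srgn (0.35 ± 0.09), with a list median of 0.24 beside −0.01 over all genes. Gzmk (0.07 ± 0.23) and Gzma (0.79 ± 0.49) did not pass. Of 6 granzyme inhibitors tested, 3 were higher, Serpinb9 (1.08 ± 0.18), Serpinb6b (1.00 ± 0.22) and Serpinb6a (0.51 ± 0.11). Of 14 genes of granule maturation and release 1 was higher, Stx11, a syntaxin needed for granule release (0.59 ± 0.14). Of 9 IL2 receptor and response genes 5 were higher, led by Socs3 (0.98 ± 0.22) and Socs1 (0.57 ± 0.10), both feedback inhibitors of cytokine signalling, Il2ra (0.48 ± 0.13) and the kinase gene Pim1 (0.46 ± 0.10). Of 17 transcription factors 4 were higher, Bach2, Stat4, Batf and Foxo1 (0.43 to 0.48), and of 10 early TCR response genes 1, Nr4a1 (0.44 ± 0.11). Of 10 other effector genes 1 was lower, the chemokine gene Xcl1 (−1.99 ± 0.26). The share of all genes tested that passed was 7.83%, and lists with 1 call in 10 or 14 genes lie near it.

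In Treg-like cells, of 5 cargo genes tested Gzmb alone passed, and the list median was −0.56 beside −0.02 over all genes. The granule protease gene Ctsw (−1.60 ± 0.36, edgeR adjusted p = 0.0508) and Nkg7 (−0.56 ± 0.33), a granule membrane protein gene, did not pass. Serpinb9 (0.88 ± 0.23, edgeR adjusted p = 0.0888) and Serpinb6b (0.89 ± 0.26, edgeR adjusted p = 0.118) did not pass either. The other lists had 1 call in this class, the chemokine gene Ccl5, which was lower (−2.17 ± 0.29, edgeR adjusted p = 0.00192). In CD4 conventional-like cells Serpinb9 was higher (1.62 ± 0.36) and the early response gene Egr1 lower (−2.24 ± 0.26), and no cargo gene of 7 tested passed. Of all genes tested, 1.03% passed in Treg-like and 1.16% in CD4 conventional-like cells.

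**Figure D5:**
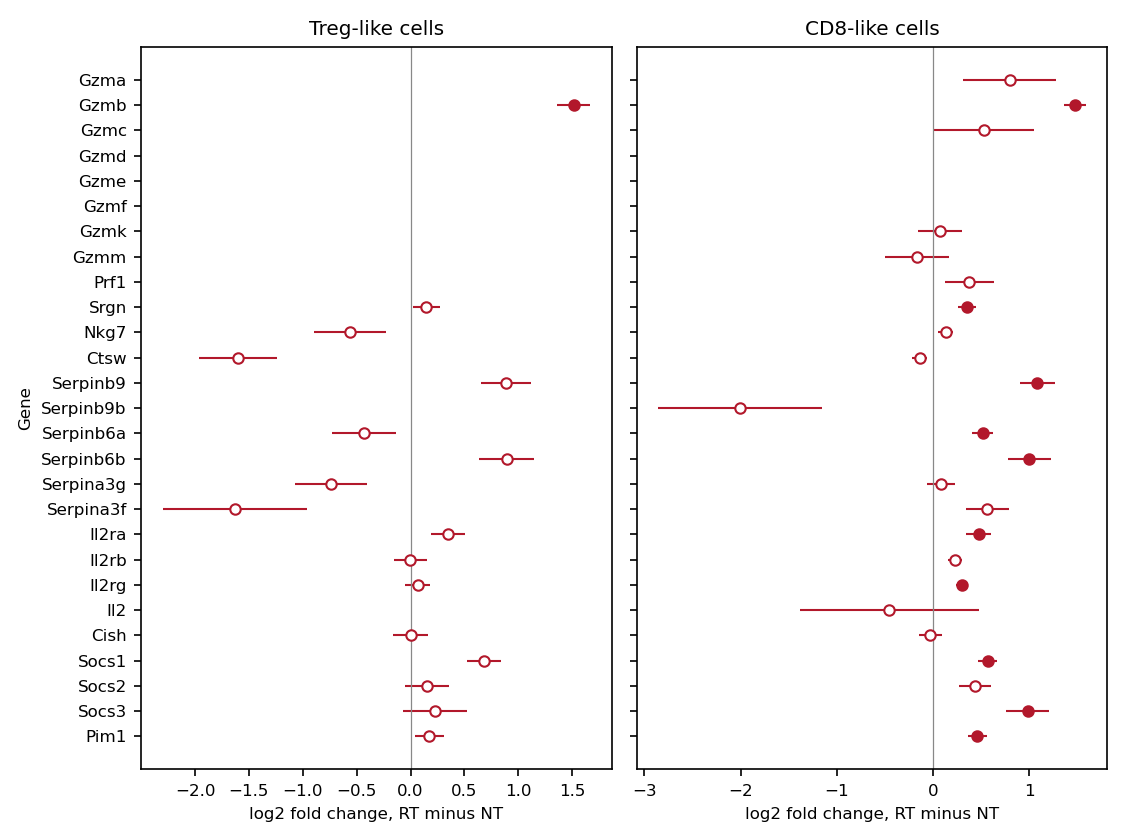
Log2 fold change of granule cargo, granzyme inhibitor and IL2 response genes in irradiated against unirradiated tumours, in Treg-like (left) and CD8-like cells (right), with horizontal bars for the SE; filled points passed an edgeR adjusted p of 0.05. Genes not tested in a class, Prf1 in Treg-like cells (0 UMIs in both RT+FTY720 pools) and fits with an SE above 2 are not drawn; Gzmb is filled on both sides (1.51 and 1.47), Prf1 is open in CD8-like cells (0.38), and the filled inhibitor genes are Serpinb9, Serpinb6a and Serpinb6b in CD8-like cells.

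By colour, Gzmb was the cargo gene that passed in Treg-like cells and did not pass in CD8-like cells. In Treg-like cells 1 of 5 cargo genes was higher in red cells, Gzmb, while 2 of 5 inhibitors were lower, Serpina3g (−0.93 ± 0.14) and Serpina3f (−1.69 ± 0.40), as was the death ligand gene Fasl (−1.25 ± 0.30). Of 10 early TCR response genes 4 were higher in red Treg-like cells, Egr3 (3.03 ± 0.69), Nr4a1 (1.31 ± 0.19), Irf8 (1.12 ± 0.21) and Nr4a3 (1.10 ± 0.20), and of 16 transcription factors 1, Stat5a (0.87 ± 0.21). In CD8-like cells 1 of 12 cargo genes was higher in red, Srgn (0.45 ± 0.10), and 3 were lower, the paralogs Gzmd, Gzme and Gzmf. Of the inhibitors Serpinb9b was lower (−3.53 ± 0.66), and 5 of 10 other effector genes were higher, led by the chemokine genes Ccl3 (2.74 ± 0.56), Xcl1 (2.17 ± 0.52) and Ccl4 (2.01 ± 0.45) and by Ifng (1.86 ± 0.30), the gene of interferon gamma. Early TCR response genes were higher in red CD8-like cells too, 5 of 10, among them Egr2 (2.86 ± 0.33), Nr4a1 (1.36 ± 0.26), Nfkbid (1.15 ± 0.22) and Nr4a3 (1.06 ± 0.24). Of 17 transcription factors 3 were higher, Stat5a (1.02 ± 0.18), Irf4 (0.83 ± 0.23) and Tcf7 (0.80 ± 0.20). Of all genes tested, 1.56% passed by colour in Treg-like and 6.47% in CD8-like cells. Whether these lists differed between the classes was not tested. All these colour calls use the matrices' colours, which conflict with the labels in the replicate 2 wells. Apart from the members, list genes are not given with the label colours.

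Genes whose levels followed each member were ranked by Pearson r of log2(CPM + 1) over sums of at least 10 cells, which share libraries, pools and depth. The sums also mix irradiated and unirradiated tumours. Over 12 Treg-like sums, Gzmb was followed most closely by Gmppb (r = 0.956), Gnb1 (0.931), Ndufb8 (0.903), Dgat1 (0.894) and Ctsz (0.889) among 5487 genes. Among those sums Gzmb was highest in red RT day 3 replicate 2 (6141 CPM), with the next at 3414 CPM. Over 23 CD8-like sums the closest to Gzmb were Ly6a (0.864), Ascc3 (0.860), Trim25 (0.854), Chmp4b (0.852) and Ifih1 (0.844) among 5871 genes. Those closest to Prf1 were Bsg (0.763), Aifm1 (0.744), Cd80 (0.700), Xpnpep1 (0.697) and Fh1 (0.694). Gzmb and Prf1 themselves had r = 0.229 over these sums, which placed Prf1 at rank 1490 in the list of Gzmb.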

How the data were processed

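The labels' protocols name the GEM-X 5' version 3 kit for the gene expression, hashtag and TCR libraries of 4 wells. In the deposited matrices each value is a raw count of UMIs. Per the file headers they come from Cell Ranger 8.0.1, and per the submitters' processing notes the build was mm39. Any further filters that the authors applied are not given in the sources. The members and gene lists were chosen with earlier results of these data known.

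Of 2816 barcodes, 2740 had 500 or more genes and 10% or less mitochondrial UMIs. A cell belonged to the hashtag with 20 or more UMIs, 3 or more times the next. No doublet caller was run, and the 90 cells with 2 or more TCR beta chains were kept. Clusters (scanpy 1.11.5, 2000 variable genes without granzymes and Prf1, 30 components, 15 neighbours, Leiden resolution 1.0) were named by at least 3 markers. The 3 mixed clusters, led by interferon, cell cycle and p53 target genes, were split by lineage genes. That split was set with the clusters in view and returned the class of 96.3% of cells of named clusters.

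Counts were summed per pool and class (at least 5 cells) and tested with edgeR 4.0.16 (filterByExpr, TMM, glmQLFTest, adjusted p below 0.05). All 6 conditions shared a fit with 1 mean each, and colours were paired by pool. SEs are the log2 fold change over the square root of F. CPM are plain shares of a sum. Samples of at least 5 cells entered share tests, and levels needed at least 3 positive cells. The contrasts within wells, between days, with against without FTY720 and between classes were added after the data were seen. Named genes are the members, up to 4 genes past the threshold per list and comparison, and the 5 most like each member; other list genes were named after their values were seen. DESeq2 1.42.0 and 33 other settings were alternatives. Same-numbered pools did not deviate together (correlations −0.126 to 0.136 in Treg-like and −0.104 to 0.106 in CD8-like cells), so replicate numbers do not pair pools. Scripts were tested on simulated data.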

Additional observations from a re-analysis of the deposited data

Results flagged for a closer look

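Of 16 groups of 4 to 10 samples checked, 3 had a highest value far from the others. Chance alone flags about 1 in 20 groups of like samples. The groups mixed days and FTY720, and those by colour also mixed irradiated and unirradiated pools, so that rate need not hold here. Gzmb in green Treg-like cells was 4189 CPM in RT day 3 replicate 1 (7 cells), with the nearest of the 8 samples at 1919 CPM. It was the only sample of that group from an irradiated tumour at day 3. Prf1 in green Treg-like cells was 264.9 CPM in RT day 1 replicate 1, a sample of 5 cells, with the nearest at 48.06 CPM. Prf1 in red CD4 conventional-like cells was 8.998 CPM in NT day 3 replicate 1, with the nearest at 2.594 CPM.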

How the results depend on the processing

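Of 1867 alternative values for 75 results under 34 settings, 1733 kept their direction and their side of the threshold, 22 lost a call, 37 gained one and 75 changed sign. The Gzmb radiation difference kept its call in Treg-like (1.38 to 1.70) and CD8-like cells (1.37 to 1.73) under every setting tried, as did the 6 differences between classes. Prf1 in Treg-like cells had 0 UMIs in 3 of 6 irradiated pools, of 10 to 13 cells and 173016 to 209026 UMIs of all genes each. The mean of the unirradiated pools was 28.5 CPM. With so few cells the size of any difference is poorly fixed, and the test over pools did not pass.

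Calls of the main comparisons that moved were these. With label colours, Gzmb red against green was 0.086 in Treg-like and 0.28 in CD4 conventional-like cells, and Prf1 in CD8-like cells −0.25. With replicate 1 pools only, Gzmb in Treg-like cells was 0.75 (edgeR adjusted p = 0.295). With naive-like and Klra1-led cells added, Gzmb red against green in CD8-like cells was −0.0051. With no filter on low counts, edgeR called Prf1 red against green (0.51) and radiation (0.35) in CD8-like cells, and Gzmb red against green (−0.88) and radiation (1.38) in CD4 conventional-like cells. The last was also called by DESeq2 (1.39) and with classes from 4 lineage genes alone (2.29). With mixed clusters left out, the RT minus NT level per Gzmb-positive CD8-like cell was 6.94 UMIs (exact permutation adjusted p = 0.0926). With no filter edgeR also called 10 further differences, among them Gzmb day 3 minus day 1 of radiation in Treg-like (1.28) and CD8-like cells (1.40), Gzmb with minus without FTY720 (−0.86), Gzmb untreated day 3 against day 1 (−0.46) and Prf1 radiation at day 3 (0.70) in CD8-like cells, and the Prf1 colour interaction in Treg-like cells (−2.65). The causes were not tested.

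Signs turned as follows for differences that had not passed. Label colours turned red minus green shares of positive cells to 0.91 (Prf1, Treg-like), 3.36 (Gzmb, CD8-like) and −6.59 percentage points (Prf1, CD8-like), levels per positive CD8-like cell to −0.47 (Gzmb) and −0.20 UMIs (Prf1), and the colour interaction of Gzmb in Treg-like cells to 0.23, which sums of at least 10 cells put at 0.010. Mixed clusters left out gave RT minus NT shares of 0.92 (Prf1, CD8-like) and −0.52 points (Gzmb, CD4 conventional-like), and red minus green −4.36 points (Prf1 share, CD8-like) and −0.43 UMIs (Gzmb level, CD8-like). Naive-like and Klra1-led cells added gave −0.35 UMIs for that level, 0.77 points for the Prf1 radiation share and 4.24 points for the cycling share of Gzmb in CD8-like cells. The class difference of the Gzmb radiation effect was 0.064 with at least 10 cells per sum, 0.21 with classes from lineage genes alone and 0.24 with naive-like and Klra1-led cells added. Lineage-gene classes also gave 0.30 for Prf1 day 3 against day 1 and 0.11 for radiation at day 1 in Treg-like cells, and 4.53 points for cycling in Gzmb. FTY720 on Gzmb in Treg-like cells, near 0, was −0.0066 with stricter quality limits, −0.0086 without cells of 2 beta chains, −0.049 with lineage-gene classes, −0.0041 with library totals, −0.0076 without mixed clusters and −0.038 with no filter. Cycling minus other shares of Prf1 were 10.9 (Treg-like) and 21.0 points (CD8-like) without thinning, 3.63 with positive at 2 UMIs and 4.01 at 10000 UMIs (Treg-like) and 3.88 with positive at 5 UMIs (CD8-like). Those of Gzmb were −3.30 with another seed (Treg-like) and 0.25 at 10000 UMIs (CD8-like). Positive at 5 UMIs gave 1.28 and 0.44 points for the Prf1 radiation share (CD8-like, Treg-like) and 0.77 for the Gzmb colour share (CD4 conventional-like). Replicate 1 pools only gave −0.59 points for the Prf1 colour share (CD8-like).

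Leaving out each pool gave 5.24 to 7.41 UMIs (CD8-like) and 11.7 to 14.7 UMIs (Treg-like) for RT minus NT per Gzmb-positive cell. Gzmb log2 differences spanned −0.16 to 0.052 (CD8-like) and −0.29 to 0.17 (Treg-like) for FTY720, −0.28 to 0.16 for FTY720 in irradiated tumours, −0.51 to 0.47 for radiation with minus without FTY720 and −0.23 to 0.085 for the colour interaction (Treg-like), and −0.14 to 0.064 for the class difference. The Gzmb level by colour in CD8-like cells spanned −0.24 to 2.04 UMIs. Prf1 spanned −0.64 to 0.15 for day 3 against day 1 (Treg-like), and in CD8-like cells −0.77 to 0.61 for radiation at day 1, −0.052 to 1.51 for day 3 minus day 1, −0.93 to 0.29 for with minus without FTY720, and −0.23 to 0.46 within wells. Gzmb cycling shares spanned −6.44 to 3.06 (CD8-like) and −0.21 to 9.85 points (Treg-like). Replicate numbers, as a replicate block, turned FTY720 on Gzmb in Treg-like cells to −0.0017 and Prf1 radiation at day 1 in CD8-like cells to −0.050, and the block changed no call.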
